A study of Mus musculus with 4 samples.

Results

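Collagens, laminins and integrins are 3 gene families through which cells build and hold on to the extracellular matrix. Here they were followed over 4 Affymetrix arrays of mouse embryonic stem cells. The members were the probe sets that the platform annotation gives to a single gene named as a collagen chain (Col), a laminin chain (Lama, Lamb or Lamc) or an integrin chain (Itga or Itgb), leaving out 3 probe sets of an integrin-binding protein. They numbered 89 of 12422 probe sets, array controls aside, and stood for 59 of 8251 genes: 31 collagens, 9 laminins and 19 integrins. One of the 19, Itgb2l, is an integrin-like gene and was counted apart from the other 18.

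All the cells were E14tg2a, a mouse embryonic stem cell line grown free of feeder cells. They were either controls or expressed constitutively active Akt, a kinase downstream of phosphoinositide 3-kinase, and are called control cells and Akt cells. One culture of each had 3000 U/ml of the cytokine LIF (leukemia inhibitory factor), another had lacked it for 4 days, and each of the 4 groups is 1 array. The titles name the Akt cells Akt12. The sources used here do not give whether that is 1 clone, which promoter drives the Akt sequence, or whether controls carry a vector.

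Matrix comes in forms that these families separate. Basement membranes are thin sheets under epithelia, in which laminin trimers of an alpha, a beta and a gamma chain polymerise, collagen IV forms another network, and Col18a1 and Col15a1 chains sit at the edge. Fibrillar collagens instead pack into the banded fibres of connective tissue. Integrins are alpha and beta heterodimers in the cell membrane that bind these proteins, and laminin is the first matrix that the early embryo lays down.

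Values are normalized intensities of the probe set that stood for a gene. A gene under the floor, the 40th percentile of all values at an intensity of 15.8, has no order among values below it. With 1 array per group there is no test within a comparison. A gene was measured in a comparison when 1 or both arrays exceeded the floor, and counted as different at a log2 difference of at least 1, which is 2-fold. A fold against a value at the floor is written as at least N-fold. Log2 differences of probe sets of one gene spread with an SD of 0.351 to 0.411 in the 4 comparisons, which covers probe sets and not cultures.

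The defining markers of stem cells were checked first. Of 9 markers of undifferentiated cells, 8 were above the floor on every array and Esrrb on none, with Pou5f1 at 491, 264, 612 and 452. Values are always listed as control with LIF, control without, Akt with and Akt without. Summed, those 9 markers gave 6851, 1825, 7548 and 4569. Control cells without LIF gave the array that stood apart, with 825 genes at least 2-fold different from control cells with LIF against 396 for the same step in Akt cells. The 3' to 5' actin signal ratio, a measure of RNA integrity, was 2.33, 1.66, 3.04 and 2.48. The same ratio for Gapdh was 3.03, 3.19, 3.05 and 2.46, so the array lowest by actin was highest by Gapdh. The part of RNA quality and of that array in the differences below cannot be told apart from line and LIF.

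Of the 59 genes, 22 were above the floor on all 4 arrays, 17 on 1 to 3, and 20 on none. The values of those 20 reached at most 14.6. They were Col8a1, Col10a1, Col11a2, Col14a1, Col15a1, Col17a1, Col19a1, Col22a1, the collagen IV genes Col4a3 and Col4a4, Lama2 and Lama4 of muscle and vessel basement membranes, and Itga2, Itga4, Itga8, Itgae, Itgam, Itgb2, Itgb2l and Itgb3. Itgam and Itgb2 are leukocyte chains and Itgb3 a platelet chain. Of 7 leukocyte and alpha 4 chains, Itgb7 alone was above the floor on all 4 arrays. Of the 4 laminin receptor chains, Itga3, Itga6, Itga7 and Itgb4, all 4 were above the floor on every array. For Itga7 this rests on a probe set marked _f_at, while its plain _at probe sets were at the floor on all arrays. The single collagen receptor chain on the array, Itga2, was above it on none. In bulk RNA, fewer cells of a type and less RNA per cell cannot be told apart.

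RefSeq (assembly GRCm38.p6) gave the 250 bases ahead of the start for 39 of the 59 genes, and all shares here are over those bases alone. GC content had a median of 62% in the 26 members that some array had above the floor and 54.4% in the 13 at the floor throughout, against 52.4% in all 32851 windows. A GC box (GGGCGG or CCGCCC, the other strand) was in 15 of those 26 and 4 of those 13, and in 32.7% of all windows. A CCAAT box (CCAAT or ATTGG) was in 10 of the 39 windows and in 33.8% of all. The letters TATAAA or TTTATA were in 5 of the 39 and in 12.4% of all. Printed here are 3 members that each differed by 2-fold or more in control cells, to show how unlike their starts are, with only bases ahead of the gene record and with these motifs in capitals. They lie at chr1:45311288-45311537, chr2:27886175-27886380 and chr8:128685404-128685653, all on the plus strand.
Col3a1: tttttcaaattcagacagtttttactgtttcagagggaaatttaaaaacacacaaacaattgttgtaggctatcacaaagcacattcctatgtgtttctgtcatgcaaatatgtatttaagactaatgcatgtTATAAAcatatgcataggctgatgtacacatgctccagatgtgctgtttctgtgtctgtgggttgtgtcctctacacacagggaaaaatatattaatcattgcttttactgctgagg
Col5a1: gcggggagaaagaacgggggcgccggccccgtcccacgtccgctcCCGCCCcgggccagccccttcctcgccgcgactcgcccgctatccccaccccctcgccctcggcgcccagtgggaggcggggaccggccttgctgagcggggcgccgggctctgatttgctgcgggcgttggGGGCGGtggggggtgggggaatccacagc
Itgb1: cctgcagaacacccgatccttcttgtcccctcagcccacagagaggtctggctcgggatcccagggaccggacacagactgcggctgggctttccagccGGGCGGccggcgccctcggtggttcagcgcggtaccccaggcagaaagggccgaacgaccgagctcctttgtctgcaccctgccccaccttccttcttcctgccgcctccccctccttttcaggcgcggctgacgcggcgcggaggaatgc
The stretch ahead of Col3a1 has a GC content of 35.2% and no CpG. The stretches ahead of Col5a1 and Itgb1 have 77.7% and 68%, with 25 and 21 CpGs in 206 and 250 bases. These are matches of letters and say nothing of a factor.

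Several members are neighbours. Among protein-coding genes of that assembly 6 adjacent pairs are both members: Col4a1 with Col4a2, Col4a3 with Col4a4, Col3a1 with Col5a2, Col6a1 with Col6a2, Col9a1 with Col19a1, and Itgam with Itgax. Col4a1 and Col4a2 run in opposite directions from start sites that lie close together. The 22 bases from one start to the other, at chr8:11312805-11312826 on the plus strand, are shown because both genes begin there. They hold 1 GC box, in capitals.
Col4a1 and Col4a2: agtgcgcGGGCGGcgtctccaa

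The main collagen IV genes were lowest in control cells with LIF. Col4a1 and Col4a2 encode the alpha 1 and alpha 2 chains, which form the most widespread collagen IV trimer. Col4a1 stood at 176, 548, 416 and 445. Col4a2 stood at 81.7, 216, 194 and 208. In both genes the 3 other arrays lay above control cells with LIF, and lay close to each other. After LIF withdrawal in control cells Col4a1 was 3.12-fold and Col4a2 2.65-fold higher, and in Akt cells the same step gave 1.07-fold for each. With LIF, Akt cells were 2.37-fold and 2.38-fold higher than control cells. Without LIF the lines differed by log2 differences of -0.30 and -0.05. In values used as deposited the Akt difference with LIF was 0.66 and 0.68, where the median of all genes was -0.52. The comparisons that have the array of control cells with LIF in common are not independent.

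The minor collagen IV genes gave little. Col4a5, which encodes a chain of kidney and other specialised basement membranes, was above the floor only in control cells without LIF, at 19.2. Col18a1, whose C-terminal fragment is endostatin, stood at 507, 541, 340 and 675. Akt cells without LIF were 1.98-fold above Akt cells with LIF, just under the threshold. Of 5 probe sets of Col18a1, 4 were above the floor on all arrays, and they gave log2 differences of 0.63 to 0.99 in Akt cells, and of -0.42 to 0.10 in control cells.

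**Figure D1:**
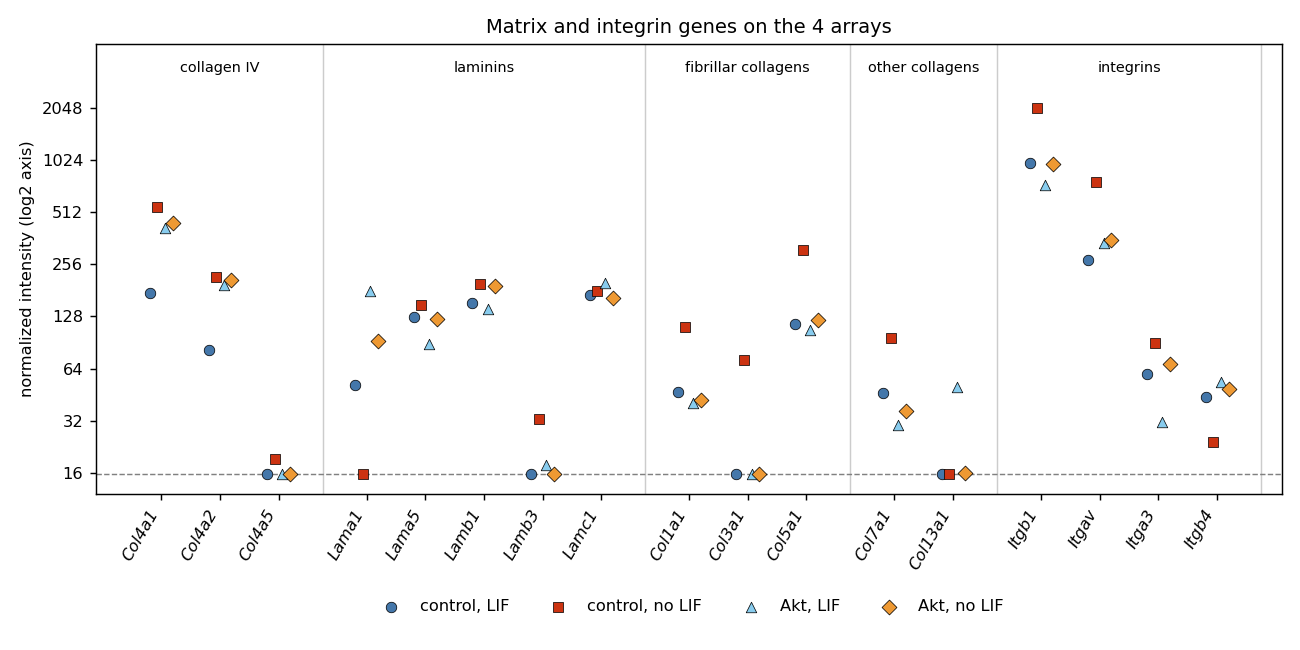
Normalized intensity on a log2 axis for 17 members that are named by value, with 1 point per array and no error bar since each group is 1 array. The dashed line is the floor at 15.8, where lower values are drawn. The squares of control cells without LIF are the highest of the 4 points for all genes drawn but Lama1, Lamc1, Col13a1 and Itgb4. Lama1 is at the floor on that array.

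Among the laminins 1 chain, Lama1, stood apart from its partners. Lama1 encodes the laminin alpha 1 chain, which with the beta 1 chain (Lamb1) and gamma 1 chain (Lamc1) makes the laminin of the earliest embryonic basement membranes. Lama1 stood at 51.5, 6.9, 178 and 92.3, and 6.9 is under the floor. Both Akt arrays lay above both control arrays. In control cells it was at least 3.26-fold lower without LIF, and in Akt cells 1.93-fold lower. Akt cells were 3.47-fold above control cells with LIF and at least 5.85-fold above them without it. With a floor at the 60th percentile, an intensity of 47.8, the log2 difference in control cells was -0.11 and that between the lines without LIF was 0.95.

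Lamb1 stood at 152, 196, 141 and 193, and Lamc1 at 171, 180, 200 and 165. Their log2 differences lay between -0.28 and 0.45 in the 4 comparisons. A second probe set of Lamb1 gave between -0.43 and 0.49. The values of Lamc1 come from a probe set marked _f_at, while its plain _at probe set was at the floor on all arrays. Lama5, the alpha chain of the other main laminin of early embryos, stood at 126, 148, 88.9 and 124, and no comparison reached 2-fold. The epidermal laminin chain Lamb3 was above the floor in control cells without LIF at 32.9 and in Akt cells with LIF at 17.8. Its difference in control cells was at least 2.08-fold, higher without LIF, and the mean over its 2 probe sets gave a log2 difference of 0.53. Lama3 and Lamb2 were above the floor in Akt cells with LIF alone, at 18.0 and 18.5.

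The 4 arrays were also fitted together with limma, with terms for line and LIF, where the difference between the responses of the lines serves as error. This left 1 residual degree of freedom and 8.69 prior ones. Of 6258 genes fitted, 39 were called for Akt against control over both media at a Benjamini-Hochberg adjusted p under 0.05, which is 0.623%, and 19 for LIF withdrawal over both lines, which is 0.304%. Of 39 members fitted, Lama1 was called for the line, with a log2 difference of 2.17 (SE 0.343, limma adjusted p = 0.0287). Its value in control cells without LIF was set to the floor in that fit. Under 9 other settings Lama1 was called in 2, was not called in 6 and could not be fitted in 1, with limma adjusted p from 0.0148 to 0.336. Of those 2, symbols as annotated repeated the main fit with the same calls and adds nothing to it. The other, plain _at probe sets, left the log2 difference of Lama1 at 2.17. Over all genes the 9 other settings gave 0 to 135 calls for the line and 0 to 118 for LIF, with 0 for LIF in 6 of them. No member was called by limma for LIF withdrawal. At an unadjusted p under 0.05 there were 3 members of 39 for LIF (Lama1, Itga3 and Col3a1, with log2 differences of -1.33, 0.85 and 1.09), beside 583 of 6258 genes. For the line there were 3 (Lama1, Col7a1 and Col3a1), beside 603 of 6258 genes.

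Of the 8 fibrillar collagens, Col1a1, Col3a1 and Col5a1 were at least 2-fold higher on the array of control cells without LIF than on that with it, and the other 5 were not. Of all measured genes 7.39% were that much higher. Col1a1 encodes the main chain of collagen I, Col3a1 makes the homotrimer of collagen III in soft tissue, and Col5a1 encodes a chain that sets the width of collagen I fibres. Col1a1 stood at 46.6, 112, 40.5 and 42.0. Col3a1 stood at 9.6, 71.6, 4.8 and 9.3, so it was above the floor on a single array. Col5a1 stood at 116, 310, 107 and 122. In each gene the 3 other arrays lay together and below that array. After LIF withdrawal in control cells Col1a1 was 2.39-fold, Col5a1 2.67-fold and Col3a1 at least 4.54-fold higher. In Akt cells Col1a1 was 1.04-fold and Col5a1 1.14-fold higher, and Col3a1 was at the floor on both arrays. Raising the floor to the 60th percentile gave Col3a1 a log2 difference of 0.58 in control cells.

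Akt cells without LIF were 2.66-fold lower than control cells without LIF in Col1a1, 2.55-fold lower in Col5a1 and at least 4.54-fold lower in Col3a1. This comparison shares its control array with LIF withdrawal in control cells. The remaining fibrillar genes had smaller values. Col5a2, next to Col3a1 on chromosome 1, was also above the floor in control cells without LIF alone, at 27.5. Col11a1, a cartilage chain, was 23.6 there. Col1a2, the partner of Col1a1 in collagen I, stood at 127, 177, 157 and 161. That is 1.40-fold higher in control cells without LIF, from a probe set marked _r_at, while its plain _at probe set was at the floor on all arrays. Col2a1, the collagen of cartilage, was above the floor in control cells with LIF alone, at 21.5.

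Second probe sets of these genes went the same way. In control cells without LIF, the second probe set of Col1a1 gave a log2 difference of 2.05 and that of Col5a1 one of 2.75. A second probe set of Col3a1 gave 1.25, as a bound, and the third was at the floor throughout. Between the lines without LIF the same 3 probe sets gave -2.34, -2.47 and -1.25. The differences of Col1a1 and Col5a1 stayed past 2-fold under every setting tried.

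**Figure D2:**
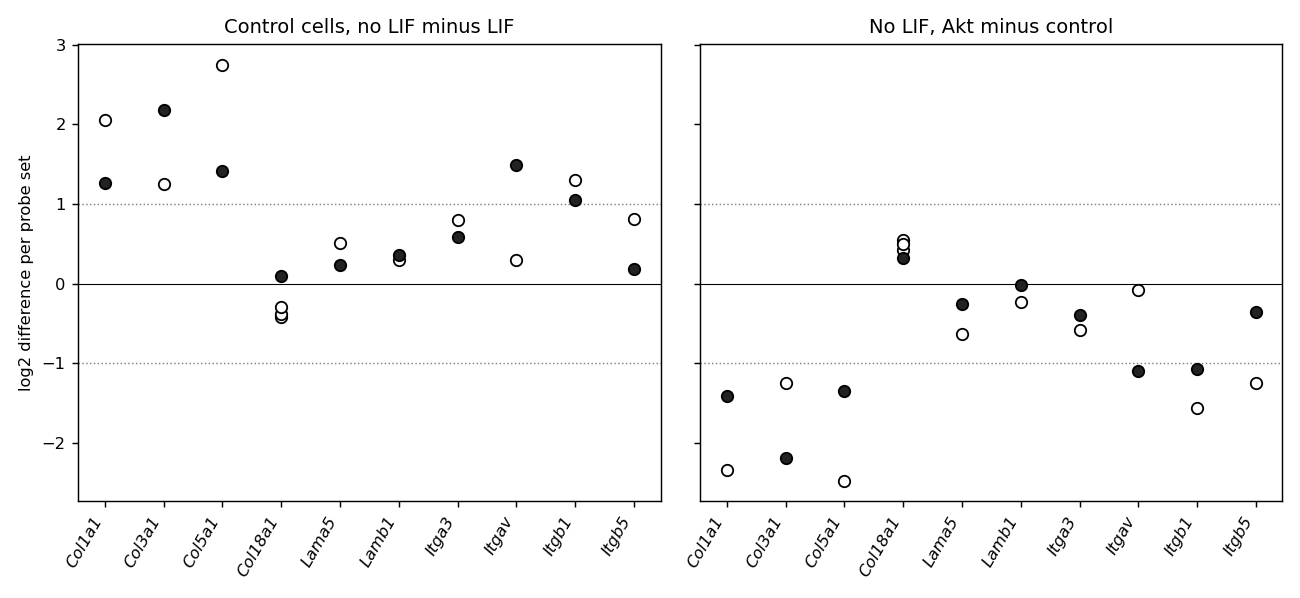
Log2 difference of each probe set that 1 or both arrays have above the floor, for 10 members with several probe sets, in control cells without minus with LIF (left) and in Akt minus control cells without LIF (right). Filled points are the probe set that stood for the gene, open points the others, and dotted lines mark 2-fold. All probe sets drawn for Col1a1, Col3a1, Col5a1 and Itgb1 lie past 2-fold on both sides, while the 2 probe sets of Itgav lie apart at 1.49 and 0.30.

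Markers of other cell types also differed on that array. The 13 fibroblast and feeder markers summed to intensities of 184, 411, 230 and 220. The highest sum was that of control cells without LIF, where Dcn, a small proteoglycan that binds collagen, stood apart at 16.6, 153, 14.9 and 8.1. Twist1 stood at 19.6, 62.3, 14.5 and 23.9. Of the defining markers Fap, Postn, Pdgfrb and Prrx1 were at the floor on all 4 arrays. The 9 trophoblast markers summed to 743, 1922, 690 and 849. Of these sums the keratin gene Krt8 gave 156, 768, 93.8 and 168, and Krt18 132, 627, 67.3 and 165. With LIF withdrawn from control cells, 3 of the 7 measured markers rose past 2-fold (Krt7, Krt8 and Krt18) and none fell as far. Eomes and Hand1 rose 1.59-fold and 1.82-fold. Tfap2c stood at 335, 226, 403 and 318, Cdx2 reached at most 18.0, and Elf5 was at the floor throughout. The part of fibroblast or trophoblast cells in the fibrillar collagen values was not tested.

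The 12 parietal and primitive endoderm markers, a cell type known for making laminin and collagen IV, summed to 207, 713, 527 and 696. Dab2 gave 39.6, 218, 75.4 and 283 of these sums, and Cited1 52.9, 300.1, 56.7 and 114. In control cells 3 of the 7 measured ones were at least 2-fold higher without LIF and none lower: Gata4 (at least 3.5-fold), Dab2 (5.51-fold) and Cited1 (5.68-fold). Of all genes 7.39% were higher and 6.40% lower there. Of the 7, 3 were measured through the array without LIF alone, Gata4 among them, and 1 through the array with LIF alone. In Akt cells with LIF 5 of the 9 measured ones were at least 2-fold above control cells with LIF and none was lower, against 3.50% of all genes higher. Pdgfra is also on the fibroblast list. The 5 were Gata4 (at least 3.74-fold), Sox17 (at least 3.56-fold), Sox7 (2.22-fold), Pdgfra (at least 4.72-fold) and Srgn (at least 4.16-fold). Of the 9, Gata4, Gata6, Sox17, Pdgfra and Srgn were at the floor in control cells with LIF. They were measured through the Akt array alone and could only come out higher. Foxa2, Pth1r and Thbd were at the floor on all 4 arrays. Of 6 visceral endoderm markers 5 were at the floor throughout, among them Ttr, Apoa1 and Hnf4a. The part of endoderm-like cells in the values of Lama1, Col4a1 and Col4a2 was not tested.

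Other collagens had 10 of 16 members above the floor on some array. Col7a1, which encodes the anchoring fibril collagen of skin, stood at 46.3, 96.0, 30.1 and 36.6. It was 2.07-fold higher in control cells without LIF than with it, though as deposited the log2 difference was 0.83. Akt cells without LIF were 2.62-fold lower than control cells without it. Col13a1, a transmembrane collagen, was above the floor in Akt cells alone, at 4.7, 7.6, 50 and 15.9. It was at least 3.17-fold higher in Akt cells with LIF than in control cells with LIF, and 3.15-fold lower in Akt cells without LIF. Both of its probe sets, marked _f_at and _r_at, gave more than 2-fold there. Under the higher floor the log2 values were 0.06 and -0.06. The microfibrillar Col6a1 and the cartilage genes Col9a1, Col9a2 and Col9a3 were above the floor on all arrays with log2 differences from -0.34 to 0.70. Col6a2, Col6a3, Col12a1 and Col26a1 were above it on some arrays, none of them at 2-fold.

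Of the 10 integrins measured after LIF withdrawal in control cells, Itgb1 and Itgav alone passed 2-fold, and both were higher without LIF. That is 20% of them, where 13.8% of all genes were different. The array of control cells without LIF was also the highest for Itga3, Itga6, Itga7, Itgb5 and Itgax. Akt cells with LIF were nearly level with it for Itga6 (209 against 211.2) and Itga7 (27.9 against 28.1). As deposited, Itgb5 was highest in control cells with LIF, at 251.7 against 229.1 without it. Itga5, Itgal, Itgb4 and Itgb7 were instead highest in Akt cells with LIF. Itgb1 encodes the beta 1 chain, which pairs with most matrix-binding alpha chains. It stood at 985, 2045, 736 and 973, with control cells without LIF highest. That is 2.08-fold higher after LIF withdrawal in control cells and 1.32-fold in Akt cells. Akt cells without LIF were 2.10-fold below control cells without LIF. The second probe set gave log2 differences of 1.30, 0.23, -0.49 and -1.56 in control cells, in Akt cells, between the lines with LIF and between them without LIF. Scaled to the hybridization controls, the log2 differences of the first fell just short of 2-fold in both comparisons, with 0.89 in control cells, where values as deposited gave 0.70. Neither probe set of Itgb1 has a plain _at name. The suffixes _f_at and _r_at mark sets that may read related sequences or that were picked under relaxed rules.

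Itgav encodes the alpha v chain of vitronectin and fibronectin receptors. It stood at 272, 763, 340 and 355, which is 2.80-fold higher in control cells without LIF than with it and 1.05-fold in Akt cells. Between the lines without LIF, Akt cells were 2.15-fold lower. Its probe sets did not match: another set, at 49.5, 61.0, 65.0 and 57.8, gave log2 differences of 0.30 and -0.08 in these comparisons, and the plain _at set was at the floor on all arrays. The mean over its probe sets was 0.59 in control cells. Its beta partner Itgb5 stood at 196, 223, 136 and 175. The 2 probe sets of Itgb5 did not match either. This first one gave log2 differences of 0.19 in control cells, 0.36 in Akt cells, and -0.52 and -0.35 between the lines with and without LIF. In the same order the second, marked _f_at, gave 0.81, -0.83, 0.40 and -1.25. The fibronectin receptor chain Itga5 was near the floor, with 16.2 in control cells without LIF and 19.4 in Akt cells with LIF.

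The laminin receptors went separate ways. Itga3 stood at 59.6, 89.3, 31.6 and 68.3, lowest in Akt cells with LIF. It was 2.16-fold higher in Akt cells without LIF than with it, but the log2 difference of 1.11 was 0.93 when scaled to the hybridization controls, 0.66 as a mean over its probe sets and 0.51 with the higher floor. Itga6, the main laminin receptor alpha chain of stem cells, stood at 149.8, 211.2, 209 and 128.2. Itgb4, the hemidesmosome chain that pairs with Itga6, stood at 44.0, 24.1, 53.5 and 48.6. Akt cells without LIF were 2.02-fold above control cells without LIF, and the log2 difference of 1.01 was 0.65 to 0.96 in the 3 other scalings, under the threshold, and 0.02 with the higher floor. Itga7 had log2 differences between -0.54 and 0.35 in its _f_at probe set, the only one above the floor. Itgb7, an integrin chain of lymphocytes, stood at 71.2, 47.1, 74.2 and 60.5. The leukocyte chains Itgax and Itgal stayed at or under 22.0. Of 8 blood markers Ptprc was at the floor on all arrays and the other 7 were above it on each. The list summed to 381, 258, 928 and 430, of which Laptm5 alone gave 185, 56.2, 606 and 180. With LIF, 2 of the 7 (Laptm5 and Cd68) were at least 2-fold higher in Akt cells and none lower, beside 3.50% and 3.64% of all genes. The 6 endothelial markers summed to 77.9, 105, 49.9 and 32.2, with 4, 1, 1 and 0 of them above the floor. Flt1 gave 23.1, 68.4, 4.5 and 3.5 of these sums, and Cdh5 and Tie1 were at the floor throughout. Their part in the integrin values was not tested.

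Counted by comparison, 10 of 34 measured members were at least 2-fold different after LIF withdrawal in control cells, where 13.8% of all 5984 measured genes were. Of the members, 9 were higher and 1 (Lama1) lower, beside 7.39% and 6.40% of all genes. The split was 7 higher and 2 lower in values as deposited. Their median log2 difference was 0.40, beside -0.03 for all genes. Of the 34, 9 were above the floor only without LIF and could only come out higher, Col3a1 and Lamb3 among them, and 3 only with LIF. The 7 measured fibrillar collagens had 3 higher, none lower and a median of 0.80, which is the bound of Col5a2. Of these 7, Col3a1, Col5a2 and Col11a1 were measured through the array without LIF alone. The 9 measured basement membrane genes had 3 higher, 1 lower and a median of 0.28, which is the bound of Col4a5. The 10 measured integrins had 2 higher, none lower and a median of 0.42.

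In Akt cells after LIF withdrawal, 2 of 32 measured members were different, where 6.66% of all 5945 genes were. Itga3 was higher and Col13a1 lower, beside 3.01% and 3.65% of all genes, and in the scaling to hybridization controls none was higher and 2 were lower. The members' median was -0.01, beside 0.01 for all genes. Of the 32, 6 were above the floor only with LIF and could only come out lower, and none only without LIF. Medians were -0.04 for 10 basement membrane genes (0.08 as deposited), 0.05 for 3 fibrillar collagens (-0.09 scaled to the hybridization controls) and -0.14 for 11 integrins. The difference between the responses of the lines was not tested, since 4 arrays leave no error for it. In log2 it was lowest for Col3a1 (-2.18), Col13a1 (-1.65), Col4a1 (-1.54), Itgav (-1.42) and Col4a2 (-1.31). Next came Lamb3 (-1.24), Col5a1 (-1.23), Col1a1 (-1.20) and Itga6 (-1.20). All of these responses were lower in Akt cells. Those of Col3a1, Col13a1 and Lamb3 rest on arrays at the floor. The highest value was that of Col18a1, at 0.89.

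**Figure D3:**
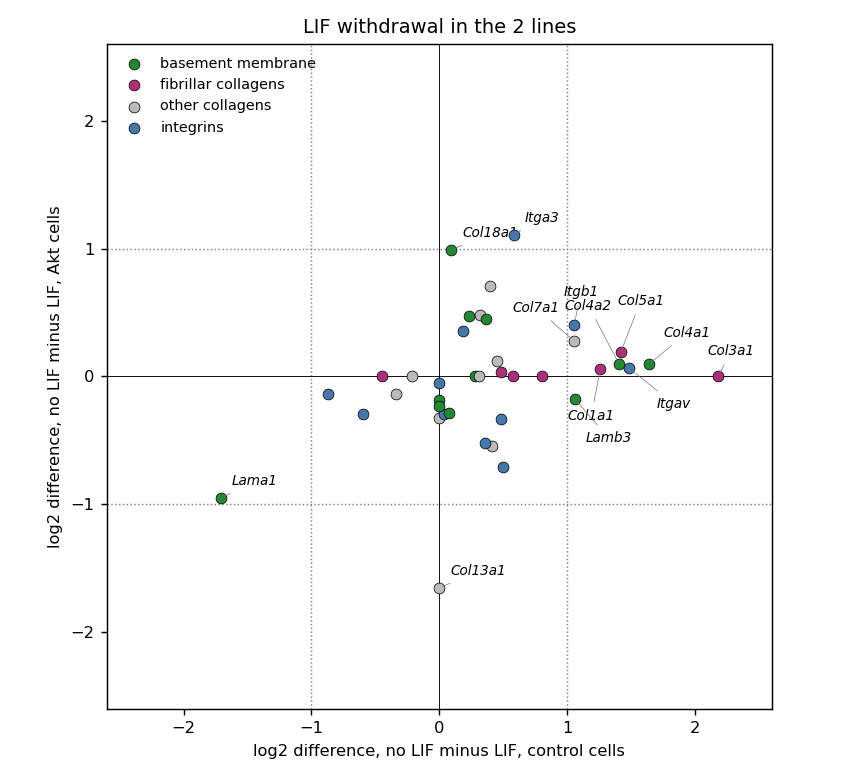
Log2 difference after LIF withdrawal in control cells (horizontal) and in Akt cells (vertical) for members measured in either comparison, with genes named at about 2-fold or beyond. Dotted lines mark 2-fold, and points on a zero line include genes at the floor on both arrays of that comparison. Of the members, 9 lie right of the right-hand line and within 2-fold on the vertical axis.

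Between the lines with LIF, 4 of 34 measured members were at least 2-fold higher in Akt cells and none lower, where 7.14% of all 5938 genes were different, 3.50% higher and 3.64% lower. Those were Lama1, Col4a1, Col4a2 and Col13a1. Of the 34, 9 were above the floor only in Akt cells and could only come out higher, Col13a1 among them, and 2 only in control cells. Values as deposited gave 2 higher and 5 lower, with the median of all genes at -0.52. The basement membrane genes had 3 of 10 higher and a median of 0.21, which was -0.36 as deposited, and 3 of the 10 (Lama3, Lamb2 and Lamb3) were measured through the Akt array alone. The 4 measured fibrillar collagens had none past 2-fold and a median of -0.16. The 11 integrins had none past 2-fold and a median of 0.28, which was -0.25 as deposited.

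Without LIF, 9 of 33 measured members differed between the lines, where 14.0% of all 6009 genes did. Akt cells were lower in 7 (Col1a1, Col3a1, Col5a1, Col7a1, Lamb3, Itgav and Itgb1) and higher in Lama1 and Itgb4, beside 8.12% and 5.87% of all genes. The split was 1 higher and 8 lower in values as deposited. Of the 33, 7 were above the floor only in control cells and could only come out lower, Col3a1 and Lamb3 among them. Another 2 were above it only in Akt cells, Lama1 among them. The 6 measured fibrillar collagens had 3 lower and a median of -1.07, and Col3a1, Col5a2 and Col11a1 were measured through the control array alone, so they could only come out lower in Akt cells. The 9 basement membrane genes had 1 higher, 1 lower and a median of -0.13, and the 10 integrins had 1 higher, 2 lower and a median of -0.42.

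Genes that work with the members were counted from lists. Of 16 integrin adhesion genes, 12 were measured in control cells and 6 were past 2-fold higher without LIF, none lower: Vcl, Tln1, Ilk, Actn1, Tes and Csrp1, which link integrins to actin. Of all genes 7.39% were higher and 6.40% lower in that comparison. Vinculin, Vcl, stood at 616, 1494, 336 and 384, and Ilk, the integrin-linked kinase, at 153, 396, 76.8 and 104. In Akt cells none of 13 was 2-fold different, where 6.66% of all genes were. Without LIF Akt cells were lower than control cells in 5 of 13 and higher in none, beside 8.12% and 5.87% of all genes. Of 11 measured collagen processing genes, Serpinh1 (3.45-fold) and Bmp1 (2.21-fold) were higher in control cells without LIF. That is 18.2% of them, where 13.8% of all genes were different. In Akt cells Bmp1 was 2.51-fold higher and Pcolce 2.25-fold lower, 2 of 10 measured, where 6.66% of all genes were different. Serpinh1 is the collagen chaperone of the endoplasmic reticulum and stood at 117, 403, 159 and 175. Bmp1 cleaves procollagen ends.

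Of 8 measured other basement membrane genes, Hspg2 (perlecan, 2.26-fold), Sparc (2.01-fold) and Tinagl1 (at least 3.28-fold) were higher in control cells without LIF and Smoc1 2.35-fold lower. Of all genes 7.39% were higher and 6.40% lower there. Nid2, which links laminin to collagen IV, stood at 786, 854, 763 and 790, within 1.09-fold in all 4 comparisons. With LIF none of the 7 measured in that list was 2-fold different between the lines, where 7.14% of all genes were. Of 9 measured other integrin ligands, Madcam1 (3.93-fold) and Ccn1 (3.57-fold) were higher in control cells without LIF. That is 22.2% of them, where 13.8% of all genes were different. Fibronectin, Fn1, stood at 188, 300.3, 231 and 143. Ccn1 was the only gene of these 4 lists called by limma, for the line, with a log2 difference of -2.34 (limma adjusted p = 0.0287). Under the 9 other settings Ccn1 was called in 2, was not called in 6 and could not be fitted in 1, with limma adjusted p from 0.0148 to 0.673. Those 2 were symbols as annotated, which repeated the main fit, and plain _at probe sets.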

How the data were processed

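Total RNA was measured on 4 arrays. The authors deposited a linear intensity per probe set, and the sources used here do not give its software or scaling. The 2% trimmed means of the arrays were 121, 97.4, 81.7 and 80.3, up to 1.51 times apart, so the intensities of 12422 probe sets were quantile normalized (limma 3.58.1, R 4.3.3), which removes a shift common to most genes. Values under the 40th percentile (15.8) were set to it and log2 was taken. As deposited, no intensity of 19 probe sets for transcripts absent from mouse exceeded 14.9. Those array controls were not normalized, so 14.9 and the floor of 15.8 are not on one scale. Symbols of 10833 probe sets with 1 symbol (396 had several, 1193 none) were updated through a RefSeq table of GRCm38.p6. All 89 member probe sets were the same with either symbol. Each gene was represented by its brightest probe set by mean log2. The members and lists were chosen with earlier results of these data known. Members were named by value when at least 2-fold different in a comparison, called by limma, or a chain of collagen IV or of the main early laminins or the beta 1 integrin; other members are given by range or in passing, chosen after their values were seen. The limma fit is two-sided with Benjamini-Hochberg adjustment over 6258 genes, and its p-values rest on the spread of these 4 arrays alone. The number of arrays limits the precision. The steps were tested on simulated data. Alternatives were 3 scalings, 2 floors, probe set means, symbols as annotated, and, added after seeing the data, plain _at probe sets and normalization without the array of control cells without LIF.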

Additional observations from a re-analysis of the deposited data

Results flagged for a closer look

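Members whose log2 difference after LIF withdrawal was beyond the SD between probe sets in both lines, in opposite directions, are given here. Itga6 had 0.50 in control cells and -0.70 in Akt cells. Col26a1 had 0.41, as a bound, in control cells and -0.55 in Akt cells. Each value is 1 array against 1 array, and no test was made of how the lines differ, so it was not tested.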

How the results depend on the processing

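Over 154 counts and medians under other settings, 133 stayed within 1.5 times the count or within the SD between probe sets. Symbols as annotated repeated the main values of the members, so that setting could move none of them here or below. The SD, 0.351 to 0.411, is wide beside many medians. The basement membrane median in control cells, 0.28, was 0.05 as deposited and still counted as within it. The lower floor at the 20th percentile, an intensity of 4.22, lets dim probe sets in. It gave 19 members at least 2-fold different in control cells, 9 in Akt cells, 14 between the lines with LIF and 17 without. The floor at the 60th percentile gave 0 in Akt cells and 5 between the lines without LIF. In Akt cells 1 member was different with means over probe sets and 1 with plain _at probe sets, which also put the fibrillar median in control cells at 1.26. As deposited, 7 members differed between the lines with LIF, and the medians of basement membrane, fibrillar and integrin genes were -0.36, -0.73 and -0.25. Relative to the median of all genes these were 0.17, -0.21 and 0.27. Basement membrane genes had a median of 0.996 in that comparison with the 20th percentile floor. As deposited the median of all genes was -0.26 in control cells, 0.01 in Akt cells and -0.52 and -0.23 between the lines with and without LIF. Scaled to the hybridization controls it was -0.09, -0.16, 0.13 and 0.07. The limma call of 1 member for the line became 0 with trimmed mean scaling, hybridization control scaling, values as deposited, either other floor, means over probe sets, or a fit of just the 5027 genes that no array has at the floor, from which Lama1 drops out. The value of Lama1 for the line was 2.18, 2.21, 1.79, 1.37 (60th), 2.77 (20th) and 2.17 in the first 6 of these. Of 503 values of named members, 457 moved by less than the SD between probe sets, 46 by more, and no difference of 2-fold changed sign. Normalizing without the array of control cells without LIF left the counts in Akt cells (1 higher, 1 lower) and between the lines with LIF (4 higher, 0 lower) as they were. No paired analysis was possible because each group has 1 array and the labels carry no replicate number. Where the cause of a change is not given above, the cause was not tested.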
